A study of Mus musculus with 4 samples.

Results

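The mitochondrial respiratory chain and ATP synthase are built from subunits of both genomes, and the 99 genes described here encode them in mouse lung cells. They were taken by symbol from the 31253 features of the count matrices. The nuclear part holds 86 genes whose symbols start with Ndufa, Ndufb, Ndufc, Ndufs, Ndufv, Sdha to Sdhd, Uqcr, Cox4i, Cox5, Cox6, Cox7, Cox8 or Atp5, without the Ndufaf assembly factors and without 2 features named as pseudogenes, Cox5b-ps and Ndufb1-ps. The mitochondrial part holds the 13 genes whose symbols start with mt-Nd, mt-Co, mt-Cytb or mt-Atp. By complex, 38 nuclear and 7 mitochondrially encoded genes belong to complex I, 4 nuclear genes to complex II, 8 and 1 to complex III, 18 and 3 to complex IV, and 18 and 2 to complex V. The nuclear genes lie on 19 chromosomes, while the mitochondrially encoded ones share the mitochondrial genome..

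Complex I (NADH dehydrogenase) and complex II (succinate dehydrogenase) feed electrons into the chain, complex III passes them to cytochrome c, complex IV (cytochrome c oxidase) hands them to oxygen, and complex V (ATP synthase) uses the resulting proton gradient to make ATP. Complex II has nuclear subunits only, whereas the other complexes need subunits from both genomes. Several complex IV subunits come as paralogous pairs with a widespread and a tissue-restricted or oxygen-linked form. In the lung, respiration in the smooth muscle of small pulmonary arteries is tied to oxygen sensing, and the complex IV isoform COX4I2 is known from mouse work on acute hypoxic vasoconstriction.

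The libraries came from whole lungs of C57BL/6J mice, 6 to 8 weeks old, that were kept in hypoxia for 6 weeks. The tested genotype, Vegfr2Y949F, is named for a tyrosine-to-phenylalanine change at 1 position of VEGFR2, the VEGF receptor encoded by Kdr, and is called mutant below. The other genotype was WT, and both genotypes were hypoxic, so no contrast with normal oxygen was analysed here. Each genotype had 1 library of a set A and 1 of a set B, each made from cells of 2 pooled mice, and the meaning of the set letter was not given in the labels. A point mutation cannot be read from gene counts, so the genotype labels were not checked through the targeted gene. For the genotype tests below, a p-value is judged against how much the 2 pools of one genotype differ. Tests between cell types use all 4 libraries together, with the library as a block. Their p-values rest instead on how far the differences between types vary from library to library.

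The matrices held 15160 and 11992 barcodes in mutant libraries A and B and 13567 and 12568 in WT libraries A and B, of which 9304 to 11446 per library were kept as cells, with a median of 4312 to 5548.5 unique molecular identifiers (UMIs, each marking 1 captured RNA molecule) per cell. Barcodes shared by 2 libraries numbered 43 to 70 per pair, at most 0.557% of the smaller library. The clusters were named from marker genes alone, without the respiratory chain genes, and 17 such types with at least 20 cells in every library were tested. They are called by the type's name, but the study may have drawn its own types in another way. A further 6 named types had too few cells, and 5247 of 41248 cells stayed unnamed. Nuclear members held 1.34% and 1.41% of all UMIs in mutant libraries A and B, against 1.35% and 1.39% in WT libraries A and B. The mitochondrially encoded members held 3.73% and 3.55% in mutant libraries, against 3.89% and 3.12% in WT libraries, so that the WT B library had the lowest share and both set B libraries were below both set A libraries. Levels below are CPM, the UMIs of a gene per 1000000 UMIs summed over the cells of one type in one library, given in the order A, B within each genotype. A UMI counts molecules irrespective of transcript length, so CPM was not divided by length, and differences in capture between genes remain in it.

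Pericytes, the contractile cells that wrap capillaries, stood apart from every other tested type by the complex IV gene Cox4i2 and the gene Ndufa4l2, and by very little Ndufa4. Cox4i2 encodes the oxygen-linked isoform of COX4, whose widespread isoform is Cox4i1. Ndufa4 was first assigned to complex I, where its symbol places it here, and is now regarded as a subunit of complex IV, while its paralogue Ndufa4l2 is known as a HIF-1 target that lowers oxygen use in hypoxic cells. For both pairs, up to 300 bases of coding sequence that end at the stop codon are shown because the counts can separate the paralogues only where the sequences differ. They come from the GENCODE M21 transcripts on GRCm38, 5′ to 3′, and capitals mark bases identical to the paralogue in a global alignment of the pair.

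Ndufa4 (transcript Ndufa4-204, gene at chr6:11900292-11907497, − strand): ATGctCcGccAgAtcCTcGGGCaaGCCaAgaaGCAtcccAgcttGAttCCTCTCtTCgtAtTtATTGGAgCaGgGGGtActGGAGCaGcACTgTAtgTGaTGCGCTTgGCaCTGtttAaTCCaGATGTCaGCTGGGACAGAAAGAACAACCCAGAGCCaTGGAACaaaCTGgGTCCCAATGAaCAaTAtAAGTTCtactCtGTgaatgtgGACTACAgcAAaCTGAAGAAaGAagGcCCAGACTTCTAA
Ndufa4l2 (transcript Ndufa4l2-201, gene at chr10:127514967-127517154, + strand): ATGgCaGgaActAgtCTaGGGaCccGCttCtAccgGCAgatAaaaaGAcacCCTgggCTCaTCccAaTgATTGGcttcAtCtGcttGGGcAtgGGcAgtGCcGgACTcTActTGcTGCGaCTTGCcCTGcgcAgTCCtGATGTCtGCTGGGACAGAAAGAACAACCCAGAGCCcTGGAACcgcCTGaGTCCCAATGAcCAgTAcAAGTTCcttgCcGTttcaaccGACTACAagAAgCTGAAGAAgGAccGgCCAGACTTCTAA
Cox4i1 (transcript Cox4i1-201, bases 211 to 510 of the coding sequence, gene at chr8:120668222-120674207, + strand): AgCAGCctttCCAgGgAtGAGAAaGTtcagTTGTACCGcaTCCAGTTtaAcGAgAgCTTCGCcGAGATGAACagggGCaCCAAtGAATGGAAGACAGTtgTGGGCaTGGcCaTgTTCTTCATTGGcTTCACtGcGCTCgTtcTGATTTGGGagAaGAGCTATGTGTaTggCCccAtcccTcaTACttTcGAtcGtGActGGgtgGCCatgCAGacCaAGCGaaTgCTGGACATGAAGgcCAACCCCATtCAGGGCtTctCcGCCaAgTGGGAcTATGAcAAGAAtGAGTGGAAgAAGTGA
Cox4i2 (transcript Cox4i2-201, bases 220 to 519 of the coding sequence, gene at chr2:152754173-152765037, + strand): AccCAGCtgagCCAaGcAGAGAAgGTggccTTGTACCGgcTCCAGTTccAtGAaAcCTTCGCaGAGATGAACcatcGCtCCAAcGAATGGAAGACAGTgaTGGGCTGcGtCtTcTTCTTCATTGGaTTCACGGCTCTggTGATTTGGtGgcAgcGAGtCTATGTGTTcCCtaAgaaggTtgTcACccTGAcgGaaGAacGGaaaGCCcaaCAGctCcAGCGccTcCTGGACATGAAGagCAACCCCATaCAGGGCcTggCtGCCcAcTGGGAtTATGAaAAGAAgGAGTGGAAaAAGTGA

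The Ndufa4 and Ndufa4l2 coding sequences, of 249 and 264 bases, were identical in 172 of 267 alignment columns (64.4%), and the longest run shared by their full transcripts was 28 bases. Cox4i1 and Cox4i2, of 510 and 519 bases, were identical in 356 of 537 columns (66.3%), with a longest shared run of 14 bases. Outside such short runs, reads from the coding sequences can be told apart at the bases in lower case. No reads were examined, and the untranslated ends are not shown.

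In pericytes, Cox4i2 reached 2984 and 5082 CPM in mutant libraries A and B, against 4642 and 4927 CPM in WT libraries A and B. The mutant A pool was below the other 3 pools, which lay close together. Smooth muscle cells came next with 456 and 566 CPM in mutant and 583 and 594 CPM in WT libraries. General capillary endothelial cells had only 7.68 and 8.34 CPM in mutant and 7.64 and 7.22 CPM in WT libraries. Pericytes were above the mean of the other 16 types by edgeR's quasi-likelihood test with Benjamini-Hochberg adjustment (log2 difference 9.06, SE 0.12, adjusted p = 3.38e-60), as were smooth muscle cells (log2 difference 5.98, SE 0.14, adjusted p = 3.58e-44). Of the Cox4i1 and Cox4i2 UMIs in pericytes, Cox4i2 made up 84.4% and 87.3% in mutant and 87.4% and 88.5% in WT libraries. In smooth muscle cells the share was 42.5% and 40.7% in mutant and 47.4% and 50.7% in WT libraries. At least 1 Cox4i2 UMI was found in 770 of 775 cells (99.4%, 95% Wilson interval 98.5 to 99.7%) of the pericyte cluster and in 399 of 532 (75.0%) of smooth muscle cells, against 617 of 16268 (3.79%) of general capillary cells. Median depths were 4597 UMIs in pericytes and 4568 in general capillary cells. Such intervals cover counting error only.

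Cox4i1 was still present in pericytes, at 553 and 737 CPM in mutant and 668 and 639.9 CPM in WT libraries, close to its 579 and 601 CPM in mutant and 628 and 580.2 CPM in WT libraries in general capillary cells. Both isoforms were found in the same cells, since 663 of 775 pericytes held UMIs of both genes, 107 held Cox4i2 alone and 1 held Cox4i1 alone. Cox4i2 and Ndufa4l2 were both detected in 753 of the 775.

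Ndufa4l2 led in the same types, and in pericytes it had 1445 and 2339 CPM in mutant libraries A and B, against 2460.0 and 2568 CPM in WT libraries A and B. The mutant A pool was again the lowest of the 4. Smooth muscle cells had 287 and 402 CPM in mutant and 497 and 431 CPM in WT libraries. Adventitial fibroblasts had 34.6 and 41.0 CPM in mutant and 38.5 and 34.8 CPM in WT libraries. Pericytes (log2 difference 8.36, SE 0.10, adjusted p = 2.13e-61), smooth muscle cells (log2 difference 5.86, adjusted p = 9.38e-47) and adventitial fibroblasts (log2 difference 2.53, adjusted p = 3.08e-18) were each above the mean of the other types by the same edgeR test. A UMI of Ndufa4l2 was present in 755 of 775 cells (97.4%, 95% Wilson interval 96.0 to 98.3%) of the pericyte cluster, 411 of 532 (77.3%) of smooth muscle cells and 175 of 740 (23.6%) of adventitial fibroblasts, against 379 of 16268 (2.33%) of general capillary cells.

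Ndufa4 was lowest where Ndufa4l2 was highest, and in pericytes it had 24.8 and 6.16 CPM in mutant libraries A and B, against 21.7 and 16.5 CPM in WT libraries A and B. These values rest on 22 and 5 UMIs in mutant and 22 and 16 UMIs in WT libraries. General capillary cells had 347 and 286 CPM in mutant and 314 and 288 CPM in WT libraries. Smooth muscle cells had 332 and 297 CPM in mutant and 245 and 240.4 CPM in WT libraries. Pericytes were the lowest of the 17 types for this gene (log2 difference -4.14, SE 0.18, adjusted p = 6.5e-31), below neutrophils at 40.5 and 31.2 CPM in mutant and 33.2 and 36.1 CPM in WT libraries. Alveolar type 1 cells, the flat gas-exchange epithelium, were highest at 627 and 681 CPM in mutant and 605 and 684 CPM in WT libraries (log2 difference 1.51, adjusted p = 1.03e-23). Ndufa4 UMIs were found in 44 of 775 (5.68%) of pericytes, against 11838 of 16268 (72.8%) of general capillary cells.

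Of the Ndufa4 and Ndufa4l2 UMIs of pericytes, Ndufa4l2 took 98.3% and 99.7% in mutant and 99.1% and 99.4% in WT libraries. In smooth muscle cells its share was 46.4% and 57.5% in mutant and 67.0% and 64.2% in WT libraries, and the share of adventitial fibroblasts was 13.2% and 16.1% in mutant and 15.9% and 13.7% in WT libraries. Of 775 pericytes, 715 (92.3%) held Ndufa4l2 UMIs without Ndufa4 UMIs, 40 held both and 4 held Ndufa4 alone. Of 532 smooth muscle cells, 297 (55.8%) held both, 114 held Ndufa4l2 alone, 86 Ndufa4 alone and 35 neither. Together, Cox4i2 and Ndufa4l2 supplied 24.04% and 30.8% of all nuclear member UMIs of pericytes in mutant libraries, against 30.6% and 30.8% in WT libraries. In smooth muscle cells they supplied 4.68% and 5.53% in mutant and 7.13% and 6.49% in WT libraries.

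The smooth muscle cluster carried markers of other cells beside these genes. The 8 pericyte markers, all with UMIs in every library, summed to 2233 and 2190.2 CPM in mutant and 2257 and 2168 CPM in WT libraries, on average 15.5% of their level in pericytes, while Cox4i2 stood at 11.1 to 15.3% and Ndufa4l2 at 16.8 to 20.2% of the pericyte level. The 7 general capillary markers summed to 4721 and 2571 CPM in mutant and 3597 and 3162 CPM in WT libraries, on average 56.2% of their level in general capillary cells. The 7 smooth muscle markers ranged widely between pools, at 2006 and 12898 CPM in mutant and 5017 and 7638 CPM in WT libraries. Of the barcodes in this cluster, 23.1% had been scored as doublets before their removal. The part of these other cells in the smooth muscle values of Cox4i2, Ndufa4l2 and Ndufa4 was not tested. In the pericyte cluster the 7 general capillary markers summed to 268 and 92.5 CPM in mutant and 237 and 282 CPM in WT libraries, 3.52% of their own type's level. The 7 smooth muscle markers summed there to 1127 and 1561 CPM in mutant and 1739 and 1893 CPM in WT libraries. This was on average 22.9% of their level in smooth muscle cells.

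**Figure D1:**
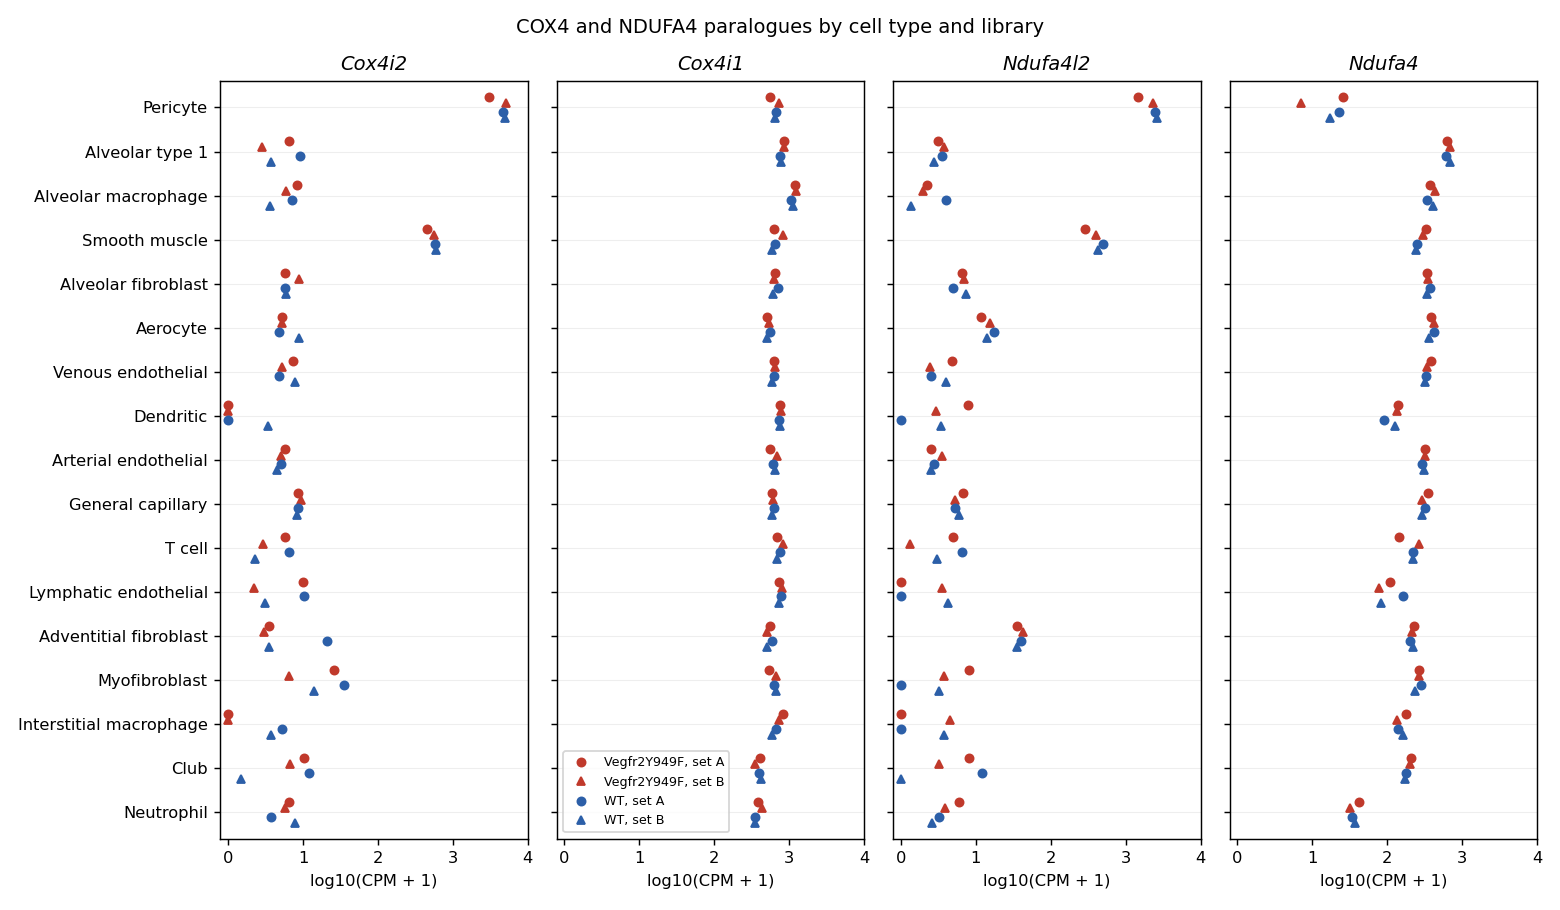
Levels of Cox4i1, Cox4i2, Ndufa4 and Ndufa4l2 as log10(CPM + 1), 1 point per library and cell type, with mutant in red, WT in blue, set A as circles and set B as triangles. Pericytes hold the highest Cox4i2 (2984 to 5082 CPM) and Ndufa4l2 and the lowest Ndufa4 (6.16 to 24.8 CPM).

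Other tissue-restricted isoforms of complex IV were at lower levels and high in other types. Cox6b2, known as the testis isoform of COX6B, was highest in alveolar fibroblasts, with 154 and 170.2 CPM in mutant libraries A and B, against 170.0 and 168 CPM in WT libraries A and B (log2 difference 4.93, SE 0.11, adjusted p = 1.54e-48, edgeR against the other types). Adventitial fibroblasts had 107 and 78.0 CPM in mutant and 86.6 and 97.2 CPM in WT libraries (log2 difference 4.07, adjusted p = 3.82e-37). Alveolar macrophages had 74.2 and 80.4 CPM in mutant and 42.5 and 70.6 CPM in WT libraries (log2 difference 3.50, adjusted p = 2.9e-28). General capillary cells had only 1.95 and 0.908 CPM in mutant and 1.20 and 0.854 CPM in WT libraries. Its share of the Cox6b1 and Cox6b2 UMIs was 35.1% and 39.8% in mutant and 40.0% and 40.7% in WT libraries for alveolar fibroblasts and 33.2% and 27.1% in mutant and 29.8% and 32.9% in WT libraries for adventitial fibroblasts. The widespread Cox6b1 was the larger part in both, at 285 and 257 CPM in mutant and 255 and 245 CPM in WT libraries in alveolar fibroblasts. A Cox6b2 UMI was found in 2293 of 4377 (52.4%) of alveolar fibroblasts, against 112 of 16268 (0.688%) of general capillary cells.

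Cox8b, a muscle isoform of COX8, was likewise found in alveolar fibroblasts, at 26.4 and 25.8 CPM in mutant and 19.0 and 21.5 CPM in WT libraries (log2 difference 6.65, adjusted p = 3.55e-33). It took 4.76% and 4.05% in mutant and 3.57% and 3.46% in WT libraries of the Cox8a and Cox8b UMIs there. Cox7a1, the muscle isoform of COX7A, was highest in alveolar type 1 cells, at 20.3 and 23.0 CPM in mutant and 13.5 and 21.6 CPM in WT libraries (log2 difference 3.97, adjusted p = 3.78e-21). The widespread Cox7a2 had 406 and 465 CPM in mutant and 377 and 468 CPM in WT libraries in the same cells. Cox6a2, the muscle isoform of COX6A, had 0 and 27.8 CPM in mutant and 0 and 18.1 CPM in WT libraries in dendritic cells, so its dendritic UMIs came from the set B libraries alone, which held 90 and 103 of these cells against 44 and 22 in the set A libraries. A Cox6a2 UMI was found in only 5 of 259 dendritic cells (1.93%), so these values rest on few cells. Alveolar type 2 cells, the surfactant-secreting epithelium, were too few to test, with 25 and 32 cells in mutant and 8 and 81 cells in WT libraries. They held 71.4 and 115 CPM in mutant and 133 and 146 CPM in WT libraries of Cox6a2. This was 21.9% and 40.5% in mutant and 44.4% and 46.2% in WT libraries of the Cox6a1 and Cox6a2 UMIs. A Cox6a2 UMI was found in 95 of 146 (65.1%) of these cells, against 9 of 16268 (0.0553%) of general capillary cells. The median depth of alveolar type 2 cells was 13013 UMIs. Cox7b2 and Cox8c, both known from testis, stayed at or under 1.31 CPM in every library of every tested type.

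Cox7a2l, which links complexes III and IV into supercomplexes and is known in a shortened form in C57BL/6 mice, was highest in T cells, with 515 and 543 CPM in mutant libraries A and B, against 536 and 551 CPM in WT libraries A and B (log2 difference 1.17, SE 0.07, adjusted p = 3.38e-22). Alveolar type 1 cells had 139 and 129 CPM in mutant and 137 and 133 CPM in WT libraries (log2 difference -1.36, adjusted p = 2.17e-20). Pericytes had 124 and 157 CPM in mutant and 199 and 164 CPM in WT libraries (log2 difference -1.21, adjusted p = 2.01e-17), whereas general capillary cells had 313 and 372 CPM in mutant and 436 and 329 CPM in WT libraries. Its share of all Cox7a UMIs was 75.4% and 69.1% in mutant and 72.0% and 73.6% in WT libraries for T cells. For alveolar type 1 cells it was 24.6% and 20.9% in mutant and 26.0% and 21.4% in WT libraries, with no overlap between these types. The c subunit of ATP synthase, which forms the rotor ring, has the same mature protein from Atp5g1, Atp5g2 and Atp5g3. Atp5g2 gave 57.9% and 58.7% in mutant and 60.5% and 58.8% in WT libraries of the UMIs of these genes in general capillary cells. In alveolar type 1 cells it gave 36.5% and 40.7% in mutant and 37.4% and 39.9% in WT libraries. Atp5g3 gave 38.01% and 28.1% in mutant and 37.3% and 28.8% in WT libraries in alveolar type 1 cells, where the set A libraries were above the set B libraries in both genotypes. By identity the c subunit genes are the most alike among these families, with up to 71.5% identical columns between Atp5g1 and Atp5g2. Their longest shared run was 21 bases, against 28 bases between Ndufa4 and Ndufa4l2, and a read within such a run could not be assigned in either family.

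**Figure D2:**
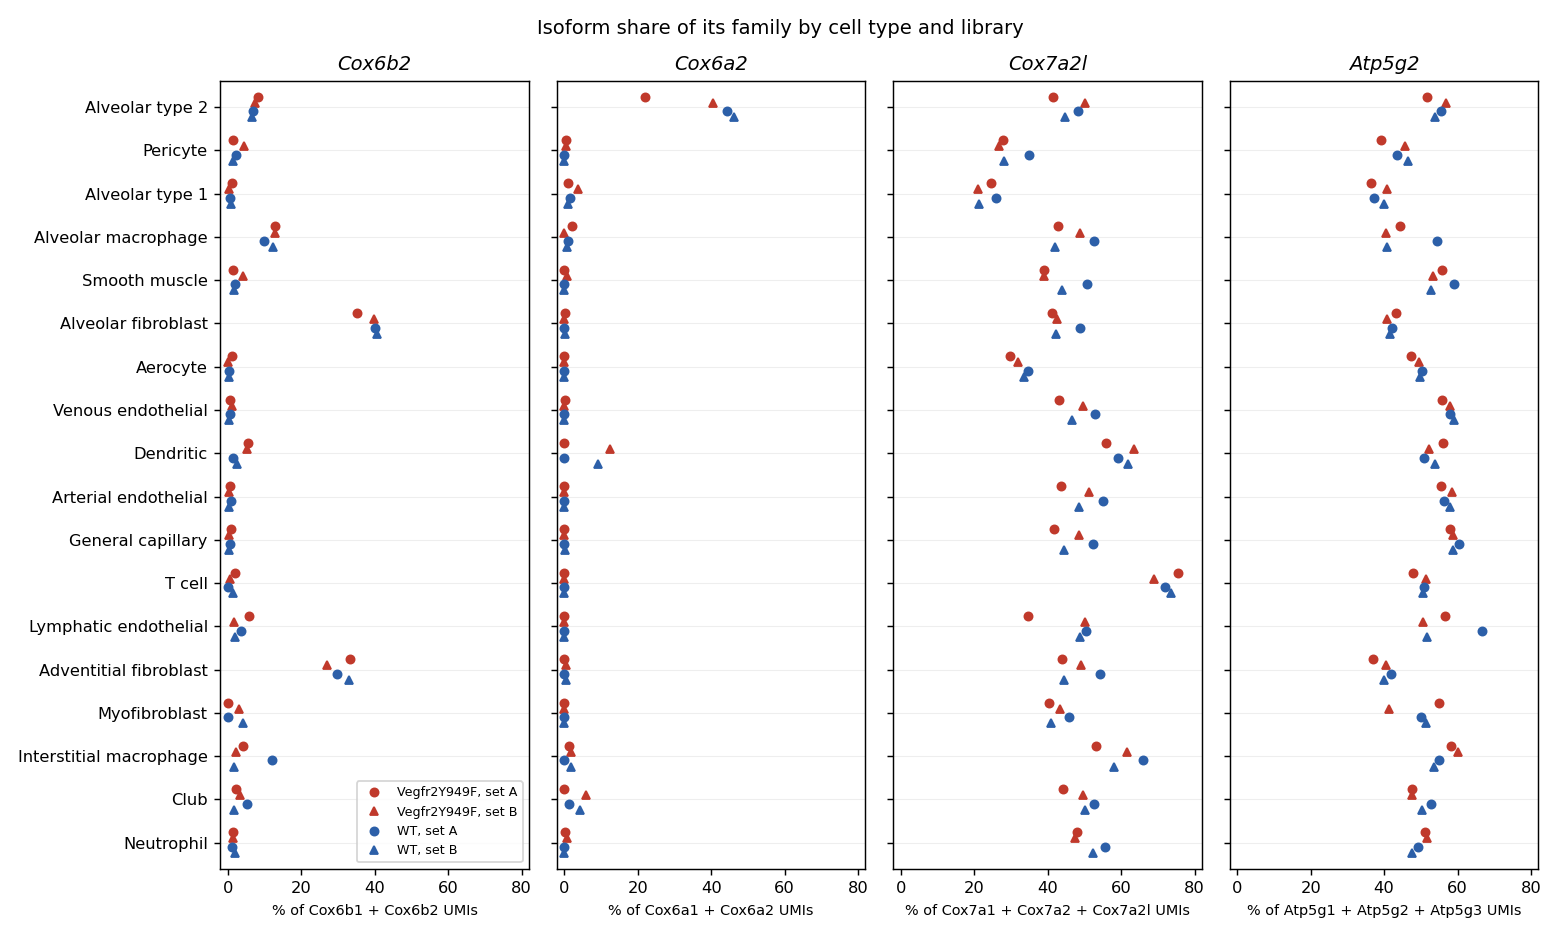
Share of Cox6b2, Cox6a2, Cox7a2l and Atp5g2 in the UMIs of their families, in percent, 1 point per library and cell type (red mutant, blue WT, circles set A, triangles set B). Cox6b2 reaches 35.1 to 40.7% in alveolar fibroblasts and Cox7a2l 69.1 to 75.4% in T cells.

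Most other nuclear members did not rise far above their median over the types. For 82 of the 86, no tested type with at least 20 CPM reached 4 times the median over the types, the exceptions being Cox4i2, Ndufa4l2, Cox6b2 and Cox8b, and the median ratio of the highest type to the median type was 1.801. Cox6a2 and Cox7a1 were among the 82 only through the limit of 20 CPM, with highest type means of 11.5 and 19.6 CPM. The Cox6a2 mean, in dendritic cells, rested on UMIs in 5 of 259 cells. Low types are not covered by this measure. Ndufc2, for example, had a mean of 454 CPM in alveolar type 1 cells and 13.1 CPM in neutrophils. Alveolar type 1 cells were the highest type for 36 members, pericytes for 17 and alveolar macrophages for 16, while neutrophils were the lowest for 58 and club cells, the secretory cells of the airway, for 17. Summed over all nuclear members, pericytes had 18426 and 24098 CPM in mutant libraries A and B, against 23232 and 24345 CPM in WT libraries A and B. Alveolar type 1 cells had 19107 and 20967 CPM in mutant and 17519 and 20883 CPM in WT libraries. Alveolar macrophages had 18473 and 18870.5 CPM in mutant and 15423 and 17957 CPM in WT libraries. General capillary cells, in the middle of the order, had 13252 and 13045 CPM in mutant and 12966 and 13137 CPM in WT libraries. At the low end, club cells had 8269 and 7332 CPM in mutant and 7300.4 and 7081 CPM in WT libraries. Neutrophils had 6639 and 7180.5 CPM in mutant and 5494 and 6110.5 CPM in WT libraries.

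In the order of means (± SD, n = 4 libraries), pericytes (22525 ± 2774 CPM), alveolar type 1 cells (19619 ± 1642 CPM), alveolar macrophages (17681 ± 1551 CPM), smooth muscle cells (16076 ± 1014 CPM) and alveolar fibroblasts (14922 ± 195 CPM) came first, each overlapping with the next. Aerocytes, the large gas-exchange capillary cells, followed at 14382 ± 513 CPM and did not overlap with venous endothelial cells (13361 ± 411 CPM). Dendritic cells, arterial endothelial, general capillary, T and lymphatic endothelial cells, both other fibroblast types and interstitial macrophages lay between 13361 ± 411 CPM and 11063 ± 1267 CPM, each overlapping with its neighbour. Interstitial macrophages did not overlap with club cells (7496 ± 527 CPM), whereas club cells and neutrophils (6356 ± 722 CPM) did overlap. Without Cox4i2 and Ndufa4l2 the pericyte sum was 15914 ± 1314 CPM, which placed pericytes after alveolar type 1 cells and alveolar macrophages.

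Each type was also tested against the mean of the other types, with the library as a block and with TMM factors, which shift all genes of a type by a common amount. This shift was 1.42 on the log2 scale in club cells, where the 5 leading genes, headed by Scgb1a1, held 62.0% of all UMIs. It was 1.28 in neutrophils and between -0.47 and 0.26 in the other types, so counts are given with TMM and on library totals alone.

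In alveolar type 1 cells, 54 of 83 nuclear members were higher and 8 lower (35.2% and 29.2% of all genes), and 73 higher and 4 lower on library totals alone (47.2% and 21.6% of all genes). The share of members higher was above that of all genes under both scalings. Complex I led, with 30 of 38 nuclear members higher and 1 lower with TMM. The median log2 difference of the nuclear members was 0.45 against -0.08 for all genes tested. In alveolar macrophages, 48 of 83 nuclear members were higher and 6 lower (28.6% and 26.7% of all genes), and 67 higher and 3 lower on library totals alone (36.1% and 20.6% of all genes), again a larger share of members higher than of all genes. Their median difference was 0.28 against -0.12 for all genes tested. Cox5a, a nuclear complex IV subunit, was among those called, at 522 and 629 CPM in mutant and 404 and 544 CPM in WT libraries (log2 difference 1.54, adjusted p = 1.56e-25).

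In pericytes, 24 of 83 nuclear members were higher and 21 lower (28.4% and 23.9% of all genes), and 59 higher and 3 lower on library totals alone (47.6% and 13.2% of all genes). With TMM both shares were near those of all genes, and on library totals the share higher was above it. With TMM, 17 of the 38 complex I members were higher and 6 lower, whereas 2 of the 16 tested complex IV members, Cox4i2 among them, were higher and 6 lower. The median difference was 0.06 against -0.04 for all genes tested. In general capillary cells, 9 of 83 nuclear members were higher and 30 lower (39.3% and 17.8% of all genes), and 29 higher and 12 lower on library totals alone (52.3% and 12.5% of all genes). The share of members higher was below that of all genes with TMM and on library totals. RLE factors, another scaling, gave 2 higher and 58 lower, no filter on low counts gave 2 higher, and without the WT B library 19 were lower with TMM. Their median difference was -0.14 against 0.09 for all genes tested.

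In neutrophils, 23 of 83 nuclear members were higher and 39 lower (33% and 33% of all genes), and 4 higher and 76 lower on library totals alone (17.2% and 59.8% of all genes). Of the complex IV members, 7 of 16 were higher and 0 lower with TMM, a direction that turned on library totals for most of them, while 24 of 38 complex I members were lower and 7 higher. In club cells, 65 of 83 nuclear members were higher and 0 lower (26.8% and 21.4% of all genes), and 1 higher and 73 lower on library totals alone (9.49% and 66.9% of all genes), so the direction in club cells turned with the scaling.

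**Figure D3:**
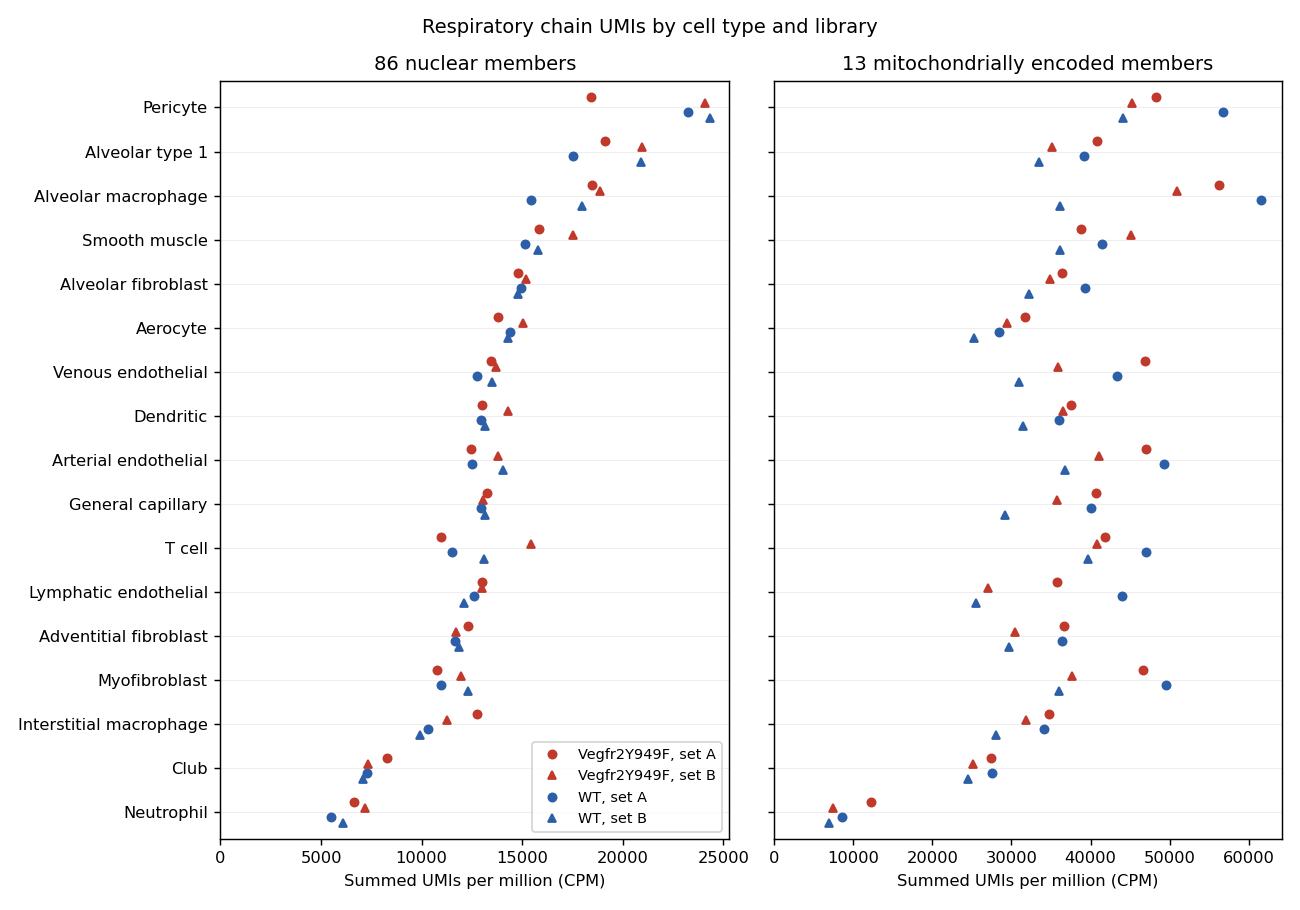
Summed CPM of the 86 nuclear members and of the 13 mitochondrially encoded members, 1 point per library (red mutant, blue WT, circles set A, triangles set B), with cell types ordered by the mean nuclear sum. Neutrophils are lowest in both panels (5494 to 7180.5 CPM nuclear), and in the mitochondrial panel the set A points lie to the right of the set B points in most types.

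Within complex I as assigned by symbol, Ndufa4, now regarded as a complex IV subunit, had the highest mean over the tested types (254 CPM). Ndufa7 came next (213 CPM). Ndufs1, the core iron-sulfur subunit of the NADH-oxidising arm, had the lowest mean (26.6 CPM). Ndufs1 had 32.9 and 50.6 CPM in mutant and 36.5 and 47.3 CPM in WT libraries in alveolar type 1 cells (log2 difference 0.53, adjusted p = 5.94e-05). It had 7.42 and 6.62 CPM in mutant and 4.90 and 12.05 CPM in WT libraries in neutrophils (log2 difference -0.36, adjusted p = 0.0644). Ndufc2, an accessory subunit of the membrane arm, was high in alveolar type 1 cells, at 411 and 434 CPM in mutant and 495 and 477 CPM in WT libraries (log2 difference 1.46, SE 0.08, adjusted p = 9.03e-27). In lymphatic endothelial cells it had 309 and 437 CPM in mutant and 302 and 504 CPM in WT libraries (log2 difference 1.21, adjusted p = 1.08e-17). General capillary cells had 184 and 174 CPM in mutant and 192 and 179.9 CPM in WT libraries. Lymphatic endothelial cells of the set A libraries numbered 27 in mutant A and 23 in WT A, and both were below the set B libraries.

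In complex II, Sdhb, the iron-sulfur subunit, was the most abundant of the 4 genes (77.8 CPM) and Sdhd, a membrane anchor, the least (44.8 CPM). Sdhb was highest in aerocytes, with 126 and 155 CPM in mutant and 132 and 154 CPM in WT libraries (log2 difference 0.65, SE 0.08, adjusted p = 5.1e-11). In complex III, Uqcrh, the hinge protein at the cytochrome c1 side, led with a mean of 429 CPM and Uqcrc1, a core protein, was lowest at 74.2 CPM. Uqcrh was highest in T cells, at 685 and 696 CPM in mutant and 641 and 701 CPM in WT libraries (log2 difference 0.80, adjusted p = 3.22e-15). Uqcrc1 was highest in pericytes, at 129 and 160.3 CPM in mutant and 169.7 and 176 CPM in WT libraries (log2 difference 0.89, adjusted p = 4.36e-13). It was lowest in neutrophils, at 8.94 and 13.2 CPM in mutant and 10.3 and 10.5 CPM in WT libraries (log2 difference -1.48, adjusted p = 4.9e-15), with no overlap between these types.

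In complex IV, Cox4i1 had the highest mean (654 CPM), with 1189.7 and 1224 CPM in mutant and 1045 and 1129.5 CPM in WT libraries in alveolar macrophages (log2 difference 0.67, adjusted p = 8.31e-11). Cox5b had 271 and 313 CPM in mutant and 261 and 326 CPM in WT libraries in alveolar type 1 cells (log2 difference 0.19, adjusted p = 0.0635). Cox8a had 628 and 936 CPM in mutant and 786 and 1016 CPM in WT libraries in pericytes (log2 difference 0.40, adjusted p = 0.000114). Cox6a1, the widespread COX6A isoform, was highest in alveolar type 1 cells, at 572 and 465 CPM in mutant and 469 and 456 CPM in WT libraries (log2 difference 1.00, adjusted p = 7.05e-18). In complex V, Atp5e, the epsilon subunit of the catalytic head's stalk, led with a mean of 374 CPM and was highest in alveolar macrophages, at 831 and 719.9 CPM in mutant and 498 and 708 CPM in WT libraries (log2 difference 0.76, adjusted p = 1.14e-12). A second Atp5o identifier, ENSMUSG00000116933, had no UMI in any tested type, so all Atp5o UMIs were assigned to the other identifier, and their division between these was set by the counting.

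The mitochondrially encoded members are transcribed from the same circular genome as long precursors that are then cut. In general capillary cells mt-Atp6, an ATP synthase membrane subunit, made up 24.2 ± 0.253% of their UMIs (mean ± SD, n = 4 libraries), followed by the complex IV core subunits mt-Co3 (16.8 ± 0.833%) and mt-Co2 (14.6 ± 0.310%), by mt-Cytb of complex III (12.6 ± 0.531%) and by mt-Co1 (9.96 ± 0.459%). The complex I genes ranged from mt-Nd4 (7.80 ± 0.776%) over mt-Nd2 (5.80 ± 0.155%), mt-Nd1 (4.33 ± 0.502%), mt-Nd3 (1.45 ± 0.205%), mt-Nd5 (1.42 ± 0.137%) and mt-Nd4l (0.788 ± 0.282%) to mt-Nd6 (0.0389 ± 0.00819%), the one protein gene on the other strand. mt-Atp8 had 0.281 ± 0.120%. This split varied between types: mt-Co1 held 17.05% on average in neutrophils and 8.48% in pericytes, and mt-Nd2 11.7% in club cells and 4.55% in dendritic cells. Some of these genes overlap, with 43 bases shared by mt-Atp8 and mt-Atp6, 7 by mt-Nd4l and mt-Nd4, 1 by mt-Atp6 and mt-Co3, and 14 by mt-Nd5 and mt-Nd6 on opposite strands, so the smaller members' UMIs are uncertain.

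Summed over the 13 genes, alveolar macrophages had the highest mean, with 56224 and 50926 CPM in mutant libraries A and B, against 61493 and 36105 CPM in WT libraries A and B. Pericytes had 48199 and 45242 CPM in mutant and 56731 and 44136 CPM in WT libraries. General capillary cells had 40664 and 35733 CPM in mutant and 40022 and 29162 CPM in WT libraries. Aerocytes had 31763 and 29394 CPM in mutant and 28467 and 25229 CPM in WT libraries. Neutrophils were lowest, at 12282 and 7522 CPM in mutant and 8657 and 6984 CPM in WT libraries. They did not overlap with club cells, the next type, at 27394 and 25154 CPM in mutant and 27590.5 and 24564 CPM in WT libraries. No other neighbours in the order were apart. With TMM, 12 of 13 genes were called higher in alveolar macrophages and none lower, and 13 of 13 lower in neutrophils, the same numbers as on library totals. Of all genes, 28.6% were higher in alveolar macrophages with TMM and 36.1% on library totals, and 33% and 59.8% were lower in neutrophils. In club cells 13 were higher with TMM (26.8% of all genes), but 3 higher and 7 lower on library totals (9.49% and 66.9% of all genes), so that direction turned with the scaling. Over the 17 types, the nuclear and mitochondrial sums had a Pearson r of 0.725 and a Spearman rho of 0.588, and of 0.626 and 0.506 over the 16 types without neutrophils. These describe means that share their libraries and their totals.

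Set A libraries had more mitochondrially encoded UMIs than set B libraries of the same genotype in 16 of 17 types, the exception being smooth muscle cells, and both set A libraries were above both set B libraries in 14. The median ratio of set A to set B was 1.10 in mutant and 1.23 in WT libraries. Nuclear sums went the other way less evenly, with both set A libraries below both set B libraries in 7 types and above in none. The 12 dissociation-linked genes (Fos, Jun, Hspa1a and others) summed to 19727 and 25943 CPM in mutant and 20878 and 29662 CPM in WT libraries in general capillary cells, with both set B libraries above both set A libraries. Median depth was also higher in set B, at 4312 and 5548.5 UMIs per cell in mutant and 4339 and 5472 in WT libraries. The largest general capillary cluster held 1832 and 630 cells in mutant and 2889 and 675 cells in WT libraries. The part of dissociation-linked genes, depth and cell mix in the set difference was not tested.

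Dividing the mitochondrial by the nuclear sum of complexes I, III, IV and V gives a ratio that no library total enters. It was 3.13 and 2.80 in mutant libraries A and B, against 3.15 and 2.27 in WT libraries A and B in general capillary cells. Neutrophils had the lowest mean ratio, with 1.88 and 1.07 in mutant and 1.61 and 1.16 in WT libraries. Myofibroblasts had the highest of the tested types, with 4.40 and 3.22 in mutant and 4.59 and 2.98 in WT libraries. Alveolar type 1 cells, high in nuclear members, were second lowest with 2.17 and 1.71 in mutant and 2.28 and 1.63 in WT libraries. Pericytes had 2.67 and 1.91 in mutant and 2.48 and 1.84 in WT libraries, with Cox4i2 and Ndufa4l2 counted in the nuclear sum. Over the 17 types the median of the means was 2.84, and both set A libraries were above both set B libraries in 14 types.

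By complex, the median ratio over the types was 1.95 for complex I, with 38 nuclear and 7 mitochondrial genes, 3.14 for complex III, 4.28 for complex IV and 2.12 for complex V. By symbol, Ndufa4 and Ndufa4l2 count in complex I here. Pericytes had the lowest complex IV ratio of the types after neutrophils, 2.89 and 1.92 in mutant libraries A and B, against 2.65 and 1.89 in WT libraries A and B. Cox4i2 counts in the nuclear part of this ratio, with a mean of 4409 CPM in pericytes and a median of 5.32 CPM over the types. Whether the rank of pericytes rests on Cox4i2 was not tested, as the ratio without it was not computed. General capillary cells had 4.59 and 4.31 in mutant and 4.81 and 3.39 in WT libraries. In complex III, to which neither paralogue belongs, pericytes had 4.38 and 4.27 in mutant and 5.46 and 4.00 in WT libraries, above the 3.23 and 3.13 in mutant and 3.57 and 2.61 in WT libraries of general capillary cells. Complex I in club cells stood highest of the tested types, at 3.55 and 3.61 in mutant and 3.62 and 3.82 in WT libraries, and there the set letters did not part the libraries. Complex V was lowest in neutrophils, with 1.17 and 0.661 in mutant and 1.08 and 0.698 in WT libraries, where the set B libraries held fewer mitochondrial than nuclear UMIs in both genotypes.

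**Figure D4:**
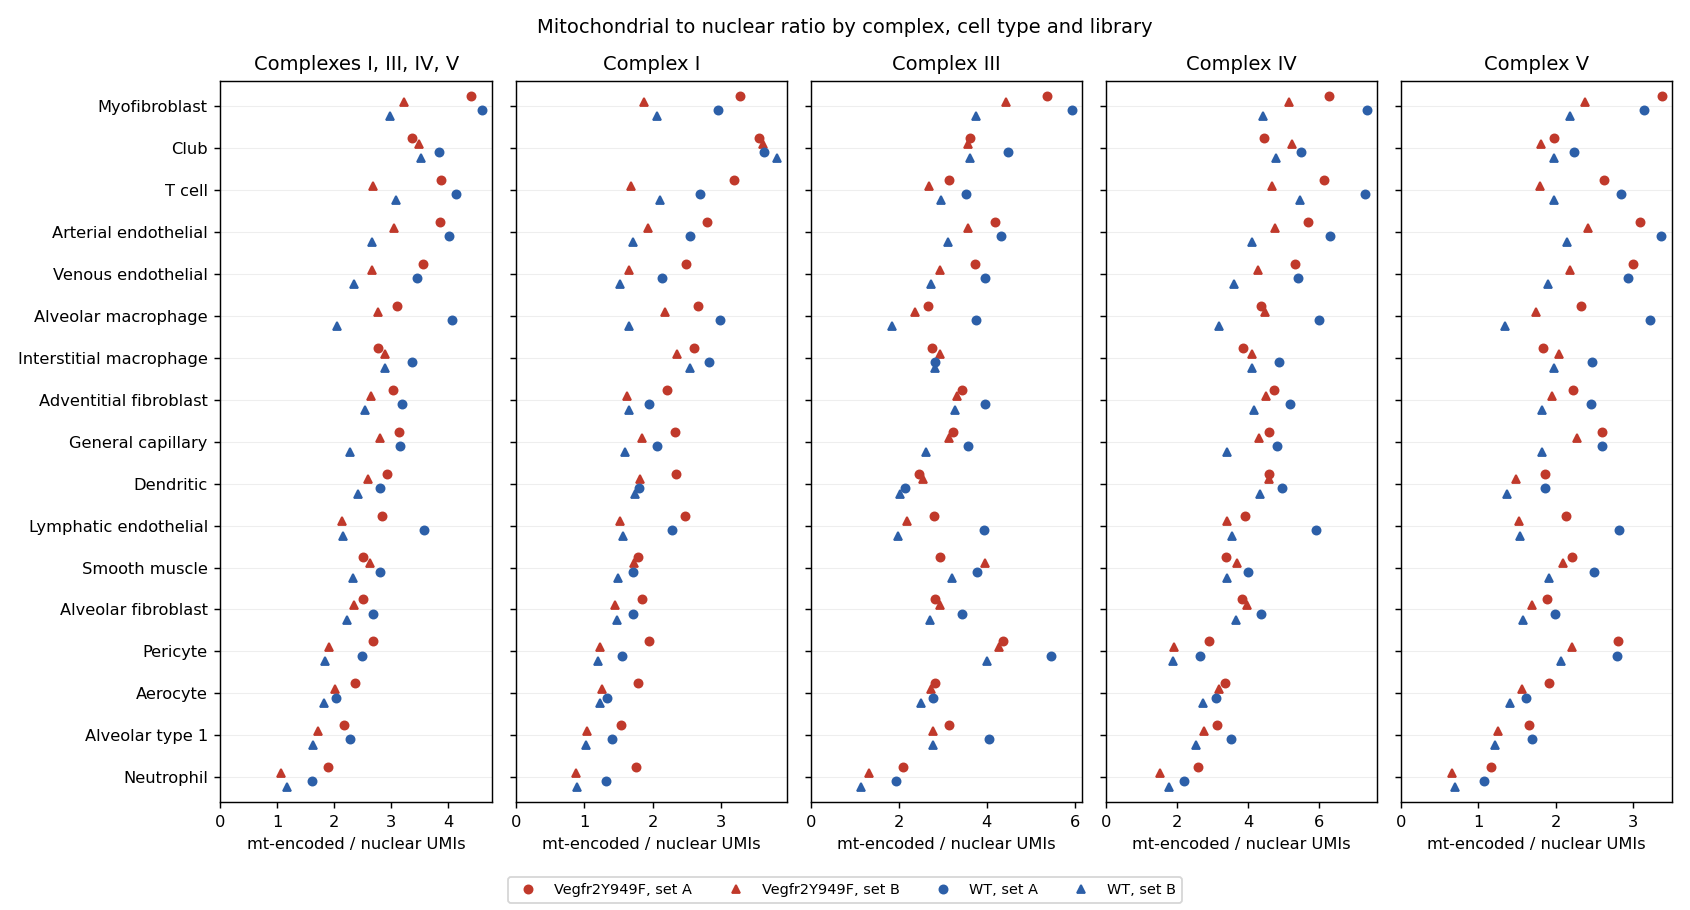
Ratio of mitochondrially encoded to nuclear UMIs for complexes I, III, IV and V together and for each complex, 1 point per library and cell type (red mutant, blue WT, circles set A, triangles set B). Complex IV lies highest (median over types 4.28) and complex I lowest (1.95), and set A libraries exceed set B libraries in most types.

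Between the genotypes, no member passed the test in any of the 17 types. edgeR's quasi-likelihood test with Benjamini-Hochberg adjustment over all genes called 0 of 1550 member tests, against 0.0055% of all tests, with a smallest adjusted p of 0.996 among members. At an unadjusted p under 0.05 there were 9 member tests (0.581%), against 1.9% of all tests. DESeq2 called 0 of 1628 member tests, against 0.0101% of all tests, and 4 at an unadjusted p under 0.05. In general capillary, aerocyte, arterial and venous cells summed as endothelium, where the mutated receptor is known to act, edgeR called 0 of 94 members, against 0% of all genes at an adjusted p and 1.17% at an unadjusted p under 0.05. Differences smaller than the spread between pools were not detectable with 2 pools per genotype.

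In the summed endothelium the nuclear members totalled 13213 and 13333 CPM in mutant libraries A and B, against 13026 and 13321 CPM in WT libraries A and B. The pools of both genotypes overlapped and spanned a narrow range. The mitochondrially encoded members totalled 41222 and 35563 CPM in mutant and 40035 and 29564 CPM in WT libraries, where the WT B library was lowest and the genotypes again overlapped. The median log2 fold change, mutant over WT, was -0.06 for 81 nuclear members, 30 of them positive, and 0.09 for the 13 mitochondrial ones, 11 positive, against -0.01 for all genes tested. With single libraries left out, the nuclear median lay between -0.17 without mutant B and 0.02 without mutant A, and the mitochondrial median between -0.05 without WT B and 0.28 without WT A, so the sign of both medians turned with 1 library.

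The endothelial members with the smallest unadjusted p were mt-Nd6, Ndufa3, Atp5k and Ndufa8, in general capillary cells as in the summed endothelium. mt-Nd6 had 15.7 and 16.9 CPM in mutant libraries A and B, against 11.2 and 12.2 CPM in WT libraries A and B in general capillary cells (log2 fold change 0.43, SE 0.18, unadjusted p = 0.0496, adjusted p = 0.9997, edgeR). Both mutant pools were above both WT pools for this low gene. Ndufa3, a small complex I accessory subunit, had 112 and 80.1 CPM in mutant and 68.0 and 73.0 CPM in WT libraries (log2 fold change 0.37, SE 0.17, unadjusted p = 0.0678, adjusted p = 0.9997). Atp5k, the e subunit of ATP synthase, had 112 and 89.8 CPM in mutant and 67.7 and 87.0 CPM in WT libraries (log2 fold change 0.31, SE 0.18, unadjusted p = 0.136). Values of Ndufa8 and Ndufa9 of complex I were lower in both mutant pools. Ndufa8 had 124 and 132 CPM in mutant and 147 and 148 CPM in WT libraries (log2 fold change -0.26, SE 0.16, unadjusted p = 0.143). Ndufa9 had 36.8 and 46.0 CPM in mutant and 47.4 and 48.2 CPM in WT libraries (log2 fold change -0.26, SE 0.18, unadjusted p = 0.207). Cox6b2, the fifth in the summed endothelium, had 1.92 and 1.06 CPM in mutant and 1.21 and 0.799 CPM in WT libraries there (log2 fold change 0.49, SE 0.40, unadjusted p = 0.264). Of 81 nuclear members tested in general capillary cells, 9 were higher in both mutant pools than in both WT pools and 10 lower, against 15.6% and 8.07% of all genes, so that the share higher was below and the share lower above that of all genes. Within general capillary cells, a cluster led by Plvap and Lyve1 held 610 and 804 cells in mutant libraries A and B. It held 60 and 56 cells in WT libraries A and B. The part of this uneven mix in the genotype values of general capillary cells and of the summed endothelium was not tested.

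In pericytes the genotypes did not differ by the test for Cox4i2 (log2 fold change -0.28, SE 0.33, unadjusted p = 0.405, adjusted p = 0.9993, edgeR) or Ndufa4l2 (log2 fold change -0.44, SE 0.31, unadjusted p = 0.175, adjusted p = 0.9993). The mutant B pool lay above both WT pools for Cox4i2 and below both for Ndufa4l2, so both mutant pools were below both WT pools for Ndufa4l2. In smooth muscle cells, whose cluster also carried pericyte markers, Ndufa4l2 was below both WT pools in both mutant pools, without passing the test (log2 fold change -0.45, SE 0.28, unadjusted p = 0.147). Of 79 nuclear members tested in pericytes, 5 were higher in both mutant pools and 19 lower, against 15.9% and 12.6% of all genes, with the mutant A pool the lowest of the 4 in the nuclear sum. Their median log2 fold change was -0.15 and that of the mitochondrial members -0.13, against -0.0048 for all genes tested. Pericytes numbered 214 and 153 in mutant and 234 and 174 in WT libraries.

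Neutrophils and interstitial macrophages had the largest nuclear sums relative to WT among the 17 types, below the threshold. In neutrophils the nuclear sum was 6639 and 7180.5 CPM in mutant and 5494 and 6110.5 CPM in WT libraries, both mutant pools above both WT pools. There, 55 of 77 nuclear members had a positive fold change (median 0.13, all genes -0.01). For 29 members both mutant pools were above both WT pools, against 22.6% of all genes. Atp5md, a small ATP synthase subunit known as DAPIT, had 348 and 401 CPM in mutant libraries A and B, against 161 and 222 CPM in WT libraries A and B (log2 fold change 0.87, SE 0.24, unadjusted p = 0.0053, adjusted p = 0.9997, edgeR). The Atp5md values of the genotypes did not overlap, and set B was above set A in each genotype. With the set letter as a block in the fit, Atp5md was called (log2 fold change 0.89, adjusted p = 0.0147 by edgeR), where 0.184% of all tests were called. In that fit 48 of 1550 member tests over the types had an unadjusted p under 0.05, against 5.26% of all tests. Cox6a1 had 154 and 124 CPM in mutant and 87.1 and 74.4 CPM in WT libraries in neutrophils (log2 fold change 0.70, SE 0.24, unadjusted p = 0.0183). mt-Nd3 had 156 and 80.4 CPM in mutant and 78.4 and 48.2 CPM in WT libraries in neutrophils (log2 fold change 0.84, SE 0.36, unadjusted p = 0.0435), and it passed the test only without the mutant B library (log2 fold change 1.21, adjusted p = 0.0271 by edgeR, up to 0.999821 under the other alternatives). Neutrophil numbers were uneven, 1872 and 375 in mutant and 606 and 498 in WT libraries. In interstitial macrophages 56 of 76 nuclear members were positive (median 0.20, all genes 0.01), and 33 had both mutant pools above both WT pools, against 20.2% of all genes. Ndufab1, the mitochondrial acyl carrier protein in complex I, had 97.0 and 92.8 CPM in mutant and 50.6 and 57.3 CPM in WT libraries there (log2 fold change 0.72, SE 0.31, unadjusted p = 0.0391). Ndufb3 of complex I had 88.2 and 77.0 CPM in mutant and 46.4 and 48.9 CPM in WT libraries (log2 fold change 0.71, SE 0.32, unadjusted p = 0.0462). Atp5mpl of ATP synthase had 172 and 131 CPM in mutant and 84.3 and 93.6 CPM in WT libraries (log2 fold change 0.68, SE 0.29, unadjusted p = 0.0357).

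Of the mitochondrial members, all 13 had a positive fold change in aerocytes (median 0.15, all genes -0.00043), and 7 had both mutant pools above both WT pools, against 14.7% of all genes. Their sum was 31763 and 29394 CPM in mutant and 28467 and 25229 CPM in WT libraries. The median over the mitochondrial members was positive in 12 of the 17 types and negative in 5, from -0.14 in lymphatic endothelial cells (1 of 12 positive), -0.13 in pericytes and -0.12 in club cells (2 of 13 positive) to 0.33 in neutrophils (12 of 12 positive). These genes share a genome and differ together between the set letters, so they are not independent of each other. mt-Nd6 also had an unadjusted p under 0.05 in alveolar fibroblasts, where its levels were 18.8 and 19.7 CPM in mutant and 11.9 and 13.1 CPM in WT libraries (log2 fold change 0.59, SE 0.19, unadjusted p = 0.0122). Cox4i2 in adventitial fibroblasts, at 2.57 and 2.05 CPM in mutant and 20.1 and 2.56 CPM in WT libraries, had 1 high WT library and was called only without WT B or without a filter on low counts (adjusted p = 0.00971 and 0.00308 by edgeR, up to 0.999985 under the other alternatives). Over the 17 types, the nuclear sum was higher in both mutant pools than in both WT pools in 6 and lower in none, and the mitochondrial sum higher in 2 and lower in none. With 2 libraries a genotype, the smallest two-sided p of an exact permutation test is 0.333, so these sums carry no call.

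**Figure D5:**
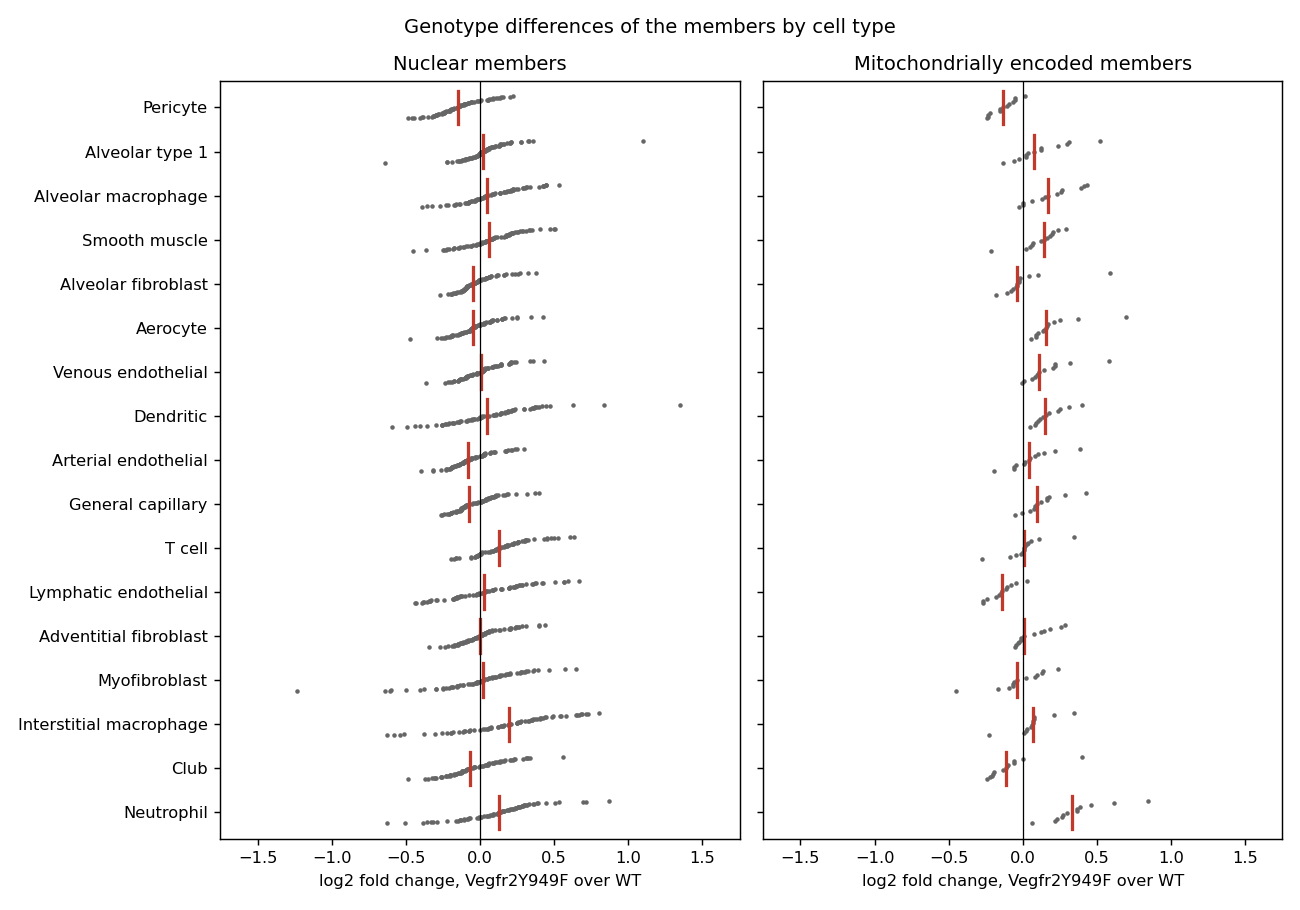
edgeR log2 fold change, mutant over WT, of each nuclear and each mitochondrially encoded member by cell type, 1 point per gene, with the median as a red bar. Points lie on both sides of 0 in most types, with medians of 0.13 in neutrophils and -0.15 in pericytes for nuclear members, and none passed the test.

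Related genes were counted in the same fits, as a description: assembly factors, which help build the complexes but are not subunits, mitochondrial ribosome proteins, which translate the mitochondrially encoded subunits, and regulators of mitochondrial gene expression such as Tfam and Nrf1. In alveolar type 1 cells, where 35.2% of all genes were called higher and 29.2% lower with TMM, and 47.2% and 21.6% on library totals, assembly factors had 24 higher and 3 lower of 43 with TMM (33 and 3 on library totals). Mitochondrial ribosome proteins had 45 higher and 6 lower of 77 with TMM (64 and 2 on library totals) in these cells, and regulators 7 higher and 4 lower of 20 with TMM (12 and 2 on library totals). The shares higher of assembly factors and of mitochondrial ribosome proteins were above that of all genes under both scalings, and that of regulators was near it with TMM. Cytosolic ribosome proteins, listed as RNA context, had 3 higher and 85 lower of 94 with TMM (5 and 82 on library totals). In pericytes, where 28.4% of all genes were called higher and 23.9% lower with TMM, and 47.6% and 13.2% on library totals, assembly factors had 14 higher and 4 lower of 43 with TMM (30 and 1 on library totals), mitochondrial ribosome proteins 30 higher and 7 lower of 77 with TMM (64 and 0 on library totals), and regulators 5 higher and 2 lower of 20 with TMM (13 and 2 on library totals). Cytosolic ribosome proteins had 2 higher and 84 lower of 94 with TMM (5 and 81 on library totals) in pericytes. With TMM the shares higher of assembly factors and regulators were near that of all genes.

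In neutrophils, where 33% of all genes were called higher and 33% lower with TMM, and 17.2% and 59.8% on library totals, assembly factors had 8 higher and 25 lower of 43 with TMM (3 and 39 on library totals), mitochondrial ribosome proteins 8 higher and 54 lower of 77 with TMM (3 and 73 on library totals), and regulators 4 higher and 10 lower of 20 with TMM (2 and 16 on library totals). The shares lower were above that of all genes under both scalings. In general capillary cells, where 39.3% of all genes were called higher and 17.8% lower with TMM, and 52.3% and 12.5% on library totals, assembly factors had 17 higher and 6 lower of 43 with TMM (26 and 3 on library totals), with TMM at the share of all genes for those higher. Electron carriers and inner membrane transporters, of which 12 of 13 listed genes were in the files, had 1 higher and 6 lower of 12 with TMM (4 and 2 on library totals) there. In alveolar macrophages, where 28.6% of all genes were called higher and 26.7% lower with TMM, and 36.1% and 20.6% on library totals, these carriers had 9 higher and 2 lower of 12 with TMM (9 and 1 on library totals), and mitochondrial ribosome proteins 37 higher and 4 lower of 77 with TMM (51 and 1 on library totals). No gene of any list was called between the genotypes in any tested type by edgeR.

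Among HIF-linked genes that act on mitochondria, 5 higher and 6 lower of 17 with TMM (10 and 5 on library totals) were called in pericytes. With TMM the share higher was near the 28.4% of all genes, and 23.9% of all genes were lower. The genes named from this list were chosen after their values were seen. Epas1, which encodes HIF-2α, had 1964 and 1133 CPM in mutant and 1711 and 1172 CPM in WT libraries there (log2 difference 1.20, adjusted p = 4.3e-07), with the set A libraries above the set B libraries in both genotypes. General capillary cells had 4174 and 2839.6 CPM in mutant and 3296 and 2626 CPM in WT libraries. Higd1b, an inner membrane protein that also served as a pericyte marker, had 2256 and 2277 CPM in mutant and 2617 and 2711 CPM in WT libraries, so its level is no independent result. Ldha, lactate dehydrogenase A, had 93.6 and 116 CPM in mutant and 103 and 102 CPM in WT libraries in pericytes (log2 difference -1.45, adjusted p = 9.62e-15). The glucose transporter Slc2a1 had 9.02 and 6.16 CPM in mutant and 12.8 and 17.5 CPM in WT libraries (log2 difference -1.46, adjusted p = 8.12e-08). Hif1a, which encodes HIF-1α, was also lower there (log2 difference -0.95, adjusted p = 9.02e-10). The following genes are not HIF-linked ones but come from the list of electron carriers and inner membrane transporters. They too were chosen after their values were seen, and the counts of that list in pericytes are not given here. Slc25a4, the muscle-type ADP/ATP carrier, had 325 and 539 CPM in mutant and 457 and 613 CPM in WT libraries (log2 difference 1.22, adjusted p = 8.46e-18), while Chchd10 (log2 difference -4.50, adjusted p = 2.67e-07) and Ucp2 (log2 difference -2.69, adjusted p = 1.04e-15) were lower in pericytes.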

How the data were processed

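Single-cell RNA-seq of whole lungs (10x Genomics, sequenced on a NovaSeq) was deposited as 4 matrices of unique UMI counts per gene and barcode. Per the file headers, the authors made these counts with Cell Ranger 6.1.1. The submitters' processing notes also name mm10, fastp, UMI-tools and Seurat 4.1.0, with no role given for each. The values are raw counts, with no normalization by the authors.

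Barcodes with at least 500 genes, at least 1000 UMIs and under 15% mitochondrial UMIs were kept. Scrublet scores were computed per library and the highest 8% removed as doublets. Cells of all libraries were clustered with scanpy 1.11.5 and leidenalg 0.10.2, without the respiratory chain, other mitochondrial, ribosomal, haemoglobin and sex-linked genes and Kdr. Clusters were named from marker lists and are of the "X-like" kind. UMIs were summed per library and type, and 17 types with at least 20 cells in each of 4 libraries were tested, as was the summed endothelium. edgeR 4.0.16 (R 4.3.3; quasi-likelihood, TMM, filterByExpr, Benjamini-Hochberg adjustment over all genes of a fit) compared genotypes within a type, and each type with the mean of the others with library as a block, calling an adjusted p under 0.05. DESeq2 1.42.0 was an alternative. The tests were checked on simulated counts with 200 genes changed. These had a fixed spread between libraries, so the check does not show what is detectable at the spread of the real pools. Total kept UMIs per library were 68407724 to 80190041, and no 2 libraries agreed within counting noise. Intervals are Wilson intervals at 95%.

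The members and lists were chosen with earlier results of these data known. Named genes are members called between genotypes; otherwise the 5 with the smallest p in general capillary cells and in the summed endothelium; the isoform genes; members at least 4 times over the median type with at least 20 CPM; the highest and lowest nuclear member of each complex; and all mitochondrially encoded members. Ndufc2, Ndufab1, Ndufb3, Atp5md, Atp5mpl and the genes named from the lists were chosen after their values were seen. Results of 1 member are not reported here. All 99 members matched GENCODE M21 (GRCm38), from which the coding sequences come.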

Additional observations from a re-analysis of the deposited data

How the results depend on the processing

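The alternatives were other factors (RLE), no mitochondrial genes in the table, no filter on low counts, a mitochondrial limit of 10%, doublets kept, DESeq2, the set letter as a replicate block, each library left out, for sums and ratios also CPM over nuclear-encoded UMIs, at least 1000 detected genes, and mt-Atp8, mt-Nd4l and mt-Nd6 left out, and 2 chosen after seeing the data (library totals without TMM factors, and no club cells or neutrophils). For Cox4i2, Ndufa4, Ndufa4l2, Cox6b2, Cox7a1, Cox7a2l, Cox8b and Ndufc2, 1 or 2 results across types were checked per gene, not every call named above. These results kept their direction and call under every alternative run for them. Library totals changed the counts of nuclear members higher and lower to 59 and 3 in pericytes, 29 and 12 in general capillary cells, 4 and 76 in neutrophils and 1 and 73 in club cells, and those lower to 4 in alveolar type 1 cells and 3 in alveolar macrophages; the factors were what differed. In general capillary cells RLE factors gave 2 higher and 58 lower, no filter gave 2 higher, and without single libraries 19 to 29 were lower, 19 without WT B; the cause was not tested.

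Between genotypes, 1 member was called in adventitial fibroblasts without a low-count filter, Cox4i2 (log2 fold change -2.35, adjusted p = 0.00308 by edgeR, 0.00308 to 0.999985 over the alternatives), and with single libraries left out 0 to 1, Cox4i2 again without WT B (-3.13, adjusted p = 0.00971). Its level there was 2.57 and 2.05 CPM in mutant and 20.1 and 2.56 CPM in WT libraries, so WT A stood alone. In neutrophils 0 to 1 was called with single libraries left out, mt-Nd3 without mutant B (1.21, adjusted p = 0.0271 by edgeR, 0.0271 to 0.999821 over the alternatives). The labels do not say whether the set letter pairs libraries, and with 2 letters the data cannot settle it. Deviations of same-letter libraries correlated at 0.0584 to 0.518 over the types and the summed endothelium, above 0.1 in 16 of 18. With the set letter as a replicate block, 1 member was called in neutrophils, Atp5md (0.89, adjusted p = 0.0147 by edgeR, 0.0147 to 0.999781 over the alternatives), against 0.184% of all tests, and 48 of 1550 member tests (3.1%) had an unadjusted p under 0.05, against 5.26% of all tests. Without the block these were 9 member tests (0.581%) and 1.9% of all tests. Leaving out single libraries gave log2 differences of the mitochondrial sum between -0.0703 and 0.386 in general capillary cells and between -0.0644 and 0.373 in the summed endothelium, where those of the nuclear sum lay between -0.00531 and 0.0271. Median fold changes in general capillary cells then lay between -0.15 and 0.01 for nuclear and between -0.05 and 0.30 for mitochondrial members, against -0.07 and 0.10 with every library. Low values such as mt-Nd6 or Ndufa4 in pericytes rest on few UMIs, and small types (club, dendritic, alveolar type 2) limit what could be detected.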

Other observations

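Types with too few cells for a test are given as values. B cells had a mitochondrially encoded sum of 46780.3 and 46167 CPM in mutant and 58445 and 57823 CPM in WT libraries, and a nuclear sum of 14063 and 12487 CPM in mutant and 12405 and 12603 CPM in WT libraries. Both mutant pools were below both WT pools in the mitochondrial sum, but WT A held 13 B cells, against 64 and 89 in mutant libraries and 159 in WT B. Alveolar type 2 cells had the highest mean mitochondrial sum of all named types, 59638 and 59381 CPM in mutant and 59342 and 63162 CPM in WT libraries, with a ratio of mitochondrial to nuclear UMIs of 4.07 and 4.09 in mutant and 4.44 and 4.503 in WT libraries. ILC2 had a mitochondrially encoded sum of 57513 and 46232 CPM in mutant and 64723 and 43049 CPM in WT libraries, with both set A libraries above both set B libraries. Ciliated cells had a nuclear sum of 20123 and 18611 CPM in mutant and 17942 and 15571 CPM in WT libraries, from 15 to 35 cells per library.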
